A study of Mus musculus with 20 samples.

Results

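The genes described here encode the enzymes and regulators with which a cell makes sterols and fatty acids. They were followed in the spinal cord of 20 mice, 5 in each of 4 groups. The list names 29 genes of these pathways. Of these, 26 were measured, each by 1 probe set with a single gene symbol, out of 22180 genes measured in all. Where a gene had several such probe sets, the probe set of highest mean signal across all 20 arrays stood for it, which mattered for Scap only. Idi1 and Scd2 were represented only by probe sets shared with another symbol, and with Acat2 they were not analysed here.

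The groups were control mice given saline, control mice given dexamethasone (Dex), Cx30GRko mice given saline and Cx30GRko mice given Dex. Dex is a synthetic agonist of the glucocorticoid receptor and was injected into the peritoneum at 4 mg/kg, with tissue taken 4 h after the injection of either agent. The mice were 6 to 10 weeks old and are labelled C57BL/6J in every group. The arrays titled Tg were taken as Cx30GRko and those titled wt as control. By its name the line lacks the receptor (GR) in cells that express connexin 30, a gap junction protein of astrocytes. The design text names Cre-mediated recombination and says that it was most efficient in the spinal cord. The Cre construct, the time of recombination and the sex of the mice are not given in the sources used here, and the 5 arrays of a group are taken as 5 mice because the design gives 5 mice for each.

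Cholesterol is built from acetyl-CoA through mevalonate, squalene and lanosterol, and fatty acids are built from acetyl-CoA through malonyl-CoA. The genes of both routes are controlled by the sterol regulatory element-binding proteins (SREBPs), membrane-bound transcription factors that Scap carries to the Golgi for cleavage and that Insig proteins hold back when sterols are plentiful. In the nervous system cholesterol is made locally, chiefly by oligodendrocytes, which need it for myelin, and by astrocytes, which also supply neurons.

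The values are log2 probe set signals as the authors deposited them. The table had been centred in a way the labels do not mention. Each probe set had the same mean in replicates 1 to 3 (12 arrays) as in replicates 4 and 5 (8 arrays), to within 4.54e-09, so that 2 array sets are present, each with every group in equal number. The median residual SD of the 26 genes was 0.14 in replicates 1 to 3, against 0.21 over all genes. In replicates 4 and 5 it was 0.40, against 0.37 over all genes. Cx30GRko Dex replicates 4 and 5 stood apart, with SDs across probe sets of 1.95 and 1.81, where the other 6 arrays of that set had 1.66 to 1.71 and those of replicates 1 to 3 had 1.67 to 1.70. Each comparison is therefore given over all arrays, within each array set and without that pair. The centring included the pair, so leaving it out does not undo its pull on the other 6 arrays of the set. That fit then sets Cx30GRko Dex replicates 1 to 3 against groups that keep replicates 4 and 5. Markers of spinal cord cells were present: the means over the 20 arrays were 8.86 for Aqp4 of astrocytes, 8.03 for Mbp of myelin and 10.3 for Snap25 of neurons. Whole tissue was measured, so that fewer cells of a type and less RNA per cell cannot be told apart. The number of arrays limits the precision.

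No sterol or fatty acid synthesis gene passed the test (limma, Benjamini-Hochberg adjusted p under 0.05 over all 22180 genes) in any of 6 comparisons. For Dex against saline this was 0 of 26 in control mice, where 0.0135% of all genes passed, and 0 of 26 in Cx30GRko mice, where 0.018% passed. For the mean of the Dex effects in both genotypes it was 0 of 26, where 0.149% of all genes passed. No gene of any kind passed for the difference between the 2 Dex effects (the interaction), for Cx30GRko against control under saline or for the same comparison under Dex, a background of 0% each time. At an unadjusted p under 0.05 the count among the 26 was 2 for Dex in control mice, against 5.16% of all genes, and 2 for Dex in Cx30GRko mice, against 9.73%. It was 3 for the mean Dex effect (8.64% of all genes), 3 for the interaction (5.65%), 1 for genotype under saline (5.25%) and 6 for genotype under Dex (11.2%). The smallest adjusted p among the 26, by limma, was 0.867 for Dex in control mice, 0.47 for Dex in Cx30GRko mice, 0.497 for the mean Dex effect, 0.846 for the interaction, 0.914 for genotype under saline and 0.423 for genotype under Dex. Replicates 1 to 3 alone again gave 0 of 26 in each comparison, where 0.171% of all genes passed for Dex in control mice, 0.0316% for Dex in Cx30GRko mice and 0.455% for the mean Dex effect. Replicates 4 and 5 alone gave 0 of 26, against 0% of all genes. Leaving out Cx30GRko Dex replicates 4 and 5 also gave 0 of 26, where 0.0316% passed for Dex in control mice and 0.108% for the mean Dex effect. The same arrays did show a Dex response elsewhere: Cdkn1a, a cell cycle inhibitor induced by glucocorticoids, rose by 1.80 ± 0.19 (log2, SE) on average over both genotypes (limma, adjusted p = 7.64e-05).

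The limits that these arrays set on a Dex response of the 26 genes depended on the comparison. In replicates 1 to 3 the 95% interval of the mean Dex effect lay within 0.5 log2 units of 0, a 1.41-fold change, for 25 of 26 genes. The outermost bounds were -0.54 for Stard4 and 0.46 for Acaca. Within 1 genotype the same limit of 0.5 held for 20 of 26 genes in control mice, where the lowest bound was -1.01 for Mvd, and for 20 of 26 in Cx30GRko mice, where the highest was 0.78, again for Mvd. For the interaction it held for 9 of 26, with a bound of 1.51 for Mvd. Over all arrays the interval of the mean Dex effect lay within 0.5 for 18 of 26 genes and within 1 log2 unit, a 2-fold change, for all 26. In replicates 4 and 5, with their wider residual SD, no such bound is given. The plot of the Dex differences by array set shows the contrast between the sets.

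**Figure D1:**
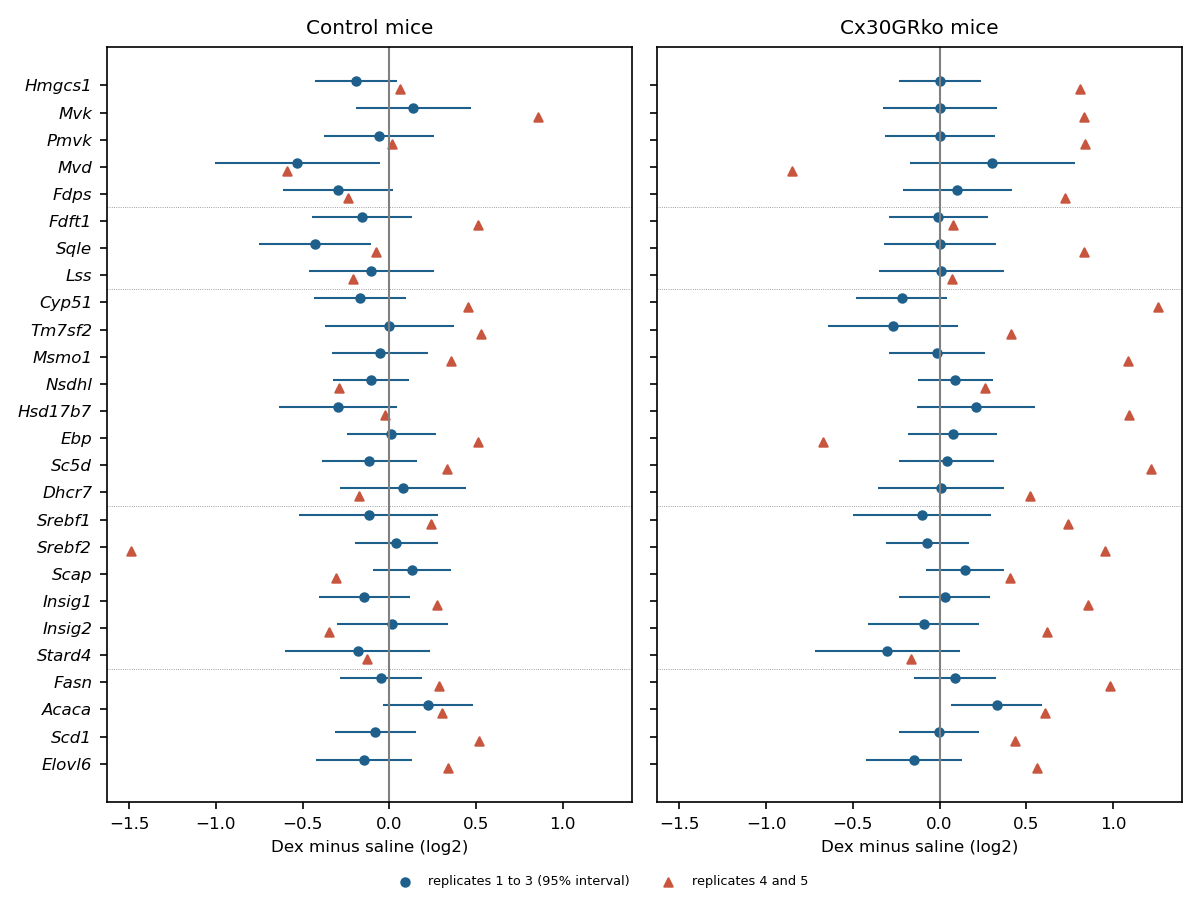
Difference of Dex minus saline in log2 signal for each of the 26 genes (rows, grouped by role from mevalonate steps at the top to fatty acid synthesis at the bottom), in control mice (left) and Cx30GRko mice (right). Circles with 95% intervals are replicates 1 to 3 and triangles, drawn without an interval, are replicates 4 and 5. In Cx30GRko mice the circles lie around 0 (median 0.0047) and the triangles mostly to the right (median 0.67).

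As a group the genes read higher under Dex in Cx30GRko mice over all arrays, and the difference lay in replicates 4 and 5. Their median difference was 0.29, with 23 of 26 higher, against a median of 0.02 over all genes and 0.08 over the genes with a mean signal above the median, among which are 24 of the 26. Replicates 1 to 3 gave a median of 0.0047 with 16 of 26 higher. In replicates 4 and 5 it was 0.67 with 23 of 26 higher, where genes above the median signal had 0.19. Of the genes above the median signal 60.8% were higher over all arrays, 48.9% in replicates 1 to 3 and 61.3% in replicates 4 and 5. Leaving out Cx30GRko Dex replicates 4 and 5 gave 0.06. In control mice the median was -0.0010 with 13 of 26 higher, -0.11 in replicates 1 to 3 against 0.15 in replicates 4 and 5. The mean Dex effect had a median of 0.11 over all arrays with 20 of 26 higher, where 59.7% of genes above the median signal were higher. The split turned in replicates 1 to 3, where the median was -0.04 with 6 higher and 20 lower, against 0.43 with 20 higher in replicates 4 and 5. Genes above the median signal were higher in 49.5% and 60.2% of cases in these 2 sets. In all, 16 of 26 genes had opposite signs in the 2 array sets. The share of all genes with opposite signs is not given, so this count has no background here. The median over all arrays changed sign to -0.02 when arrays were weighted by their precision.

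The other comparisons gave the same division. The interaction, taken as the Dex difference in Cx30GRko mice minus that in control mice, had a median of 0.31 over the 26 genes, 0.07 in replicates 1 to 3 against 0.64 in replicates 4 and 5. Genes above the median signal had 0.07 over all arrays and 0.16 in replicates 4 and 5. Cx30GRko against control under Dex had a median of 0.22 with 23 of 26 higher, 0.0075 in replicates 1 to 3, 0.51 in replicates 4 and 5 and 0.04 without the pair that stands apart. Genes above the median signal had 0.07 with 58.9% higher, and 0.17 in replicates 4 and 5. Under saline the median of the 26 genes was 0.06 with 15 of 26 higher, where genes above the median signal had 0.02 with 53.9% higher. It was -0.07 in replicates 1 to 3 against 0.15 in replicates 4 and 5, and -0.02 with array weights. Dex in Cx30GRko mice, the interaction and genotype under Dex share the Cx30GRko Dex arrays, so these medians are not separate observations.

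Array by array, the median deviation of the 26 genes from their means over the 20 arrays was 0.42 in Cx30GRko Dex replicate 4, with 21 of 26 above the mean, and 0.39 in replicate 5, with 23 of 26 above. Genes above the median signal had 0.20 and 0.12 in the same arrays. The lowest array was control saline replicate 4, at -0.41 with 4 of 26 above the mean. Across the 12 arrays of replicates 1 to 3 the median deviation ran from -0.11 in control Dex replicate 1 to 0.21 in control saline replicate 3. Markers of 9 cell types did not all follow. The median deviation of 10 astrocyte markers was 1.04 and 0.53 in Cx30GRko Dex replicates 4 and 5, that of 9 oligodendrocyte and myelin markers 0.87 and 0.25, that of 10 neuron markers 0.74 and 0.26 and that of 8 endothelial markers 0.66 and 0.16. It was of opposite sign in the 2 arrays for 6 markers of oligodendrocyte precursors (0.16 and -0.12), for 8 of meningeal fibroblasts (0.48 and -0.11) and for 4 of Schwann cells (0.39 and -0.44). For 7 microglia markers it was -0.09 and -0.03, and for 6 adipocyte markers -0.67 and -0.11. For the markers of meninges and roots the median interaction and the median genotype difference under saline each had the same sign in both array sets. The median interaction was 0.81 for meningeal fibroblasts and 1.06 for Schwann cells, 1.09 and 1.21 in replicates 1 to 3 against 0.66 and 0.66 in replicates 4 and 5. The median genotype difference under saline was -0.64 and -0.89. The mean log2 signal of the meningeal markers ran from 5.46 to 6.33 in control saline, from 4.43 to 5.89 in control Dex, from 4.58 to 5.85 in Cx30GRko saline and from 4.53 to 6.48 in Cx30GRko Dex, so that the 4 groups overlapped. The astrocyte markers' mean log2 signal ran from 7.24 to 8.17 among Cx30GRko Dex arrays, against 6.90 to 7.32 in control saline, 6.90 to 7.37 in control Dex and 7.04 to 7.39 in Cx30GRko saline. Adipocyte markers, which would mark fat around the cord, had mean log2 signals of 3.00 to 4.29 over all arrays. The part of cell composition and of the wider spread of those arrays in the shift of the 26 genes was not tested.

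**Figure D2:**
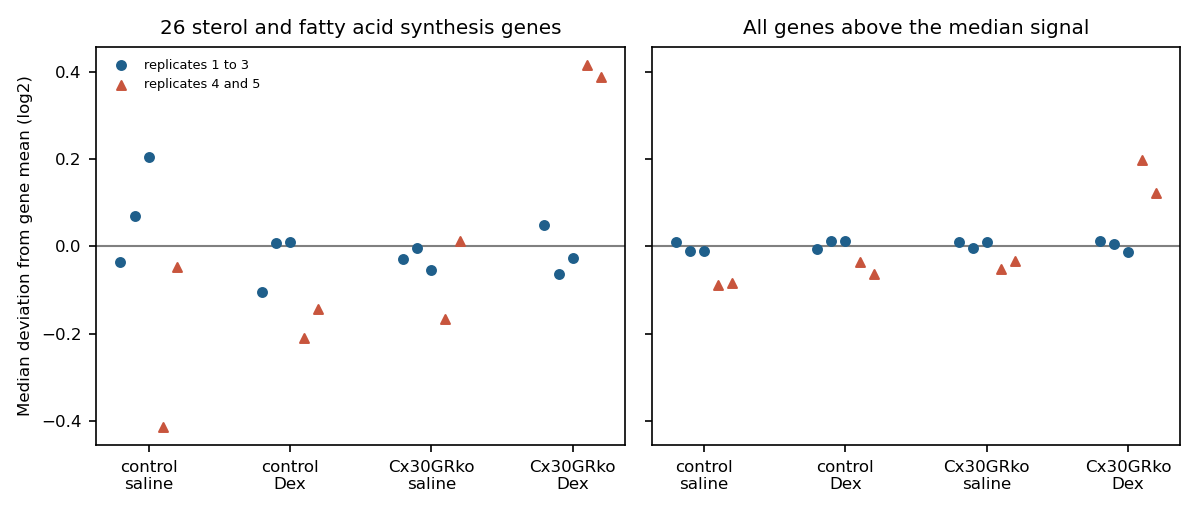
Median deviation in log2 signal from each gene's mean over the 20 arrays, 1 point per array, for the 26 genes (left) and for all genes above the median signal (right), by group. Cx30GRko Dex replicates 4 and 5 are the highest points in both panels, at 0.42 and 0.39 on the left and 0.20 and 0.12 on the right.

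**Figure D3:**
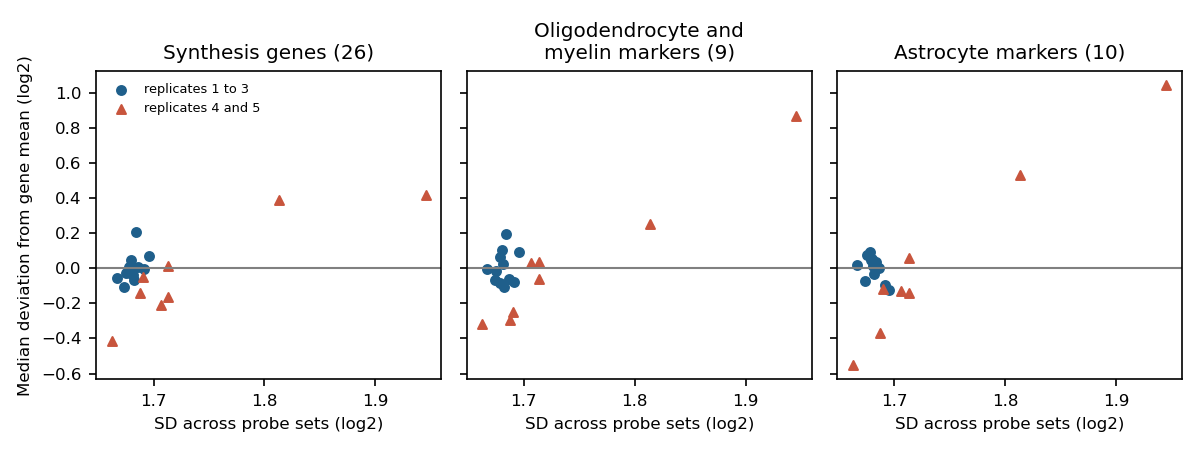
The same median deviation in log2 signal (vertical axis) against the SD of log2 signal across all probe sets of an array (horizontal axis), 1 point per array, for the 26 genes, 9 oligodendrocyte and myelin markers and 10 astrocyte markers. The arrays with SDs of 1.95 and 1.81 are the highest of all 20 in each panel.

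The sequence upstream of the genes was searched for short motifs. RefSeq windows (GRCm38.p6) of 250 bases before the transcription start were found for 23 of the 29 genes, 31 windows in all, and were searched on both strands. None was used for Fdps, Fdft1, Sqle, Stard4, Scd1 and Scd2. The CCAAT box bound by NF-Y, a usual partner of SREBPs, was in 20 of 31 windows (64.5%), against 33.9% of 32841 windows of all genes. The Sp1 box GGGCGG was in 22 of 31 (71%), against 32.7%, and the E-box CACGTG in 5 of 31 (16.1%), against 6.02%. A sterol regulatory element core, spelled TCACNCCAC, was in 1 of 31 (3.23%), that of Hmgcs1, against 1.05% of all windows. The palindrome bound by the glucocorticoid receptor, AGAACA and after any 3 bases TGTTCT, was in 0 of 31 and in 0.00913% of all windows. Windows of 1 gene can overlap, and no test was made of these shares. The background is of all genes. The share among genes above the median signal is not given, so the shares cannot be called particular to these genes. A match is only a match of letters, and other spellings of these sites were not searched. A window without a match can therefore still hold a site. The windows of 5 of the genes described below are printed 5′ to 3′ on the gene's strand, ending 1 base before the start. Matches to these motifs on either strand are in capitals.
Hmgcs1, chr13:119690101-119690350, plus strand: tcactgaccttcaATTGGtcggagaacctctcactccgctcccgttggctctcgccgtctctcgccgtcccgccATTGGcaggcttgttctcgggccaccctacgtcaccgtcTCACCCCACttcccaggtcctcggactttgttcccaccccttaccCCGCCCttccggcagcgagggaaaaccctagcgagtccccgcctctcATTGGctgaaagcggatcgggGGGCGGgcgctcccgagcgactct
Hsd17b7, chr1:169969206-169969455, minus strand: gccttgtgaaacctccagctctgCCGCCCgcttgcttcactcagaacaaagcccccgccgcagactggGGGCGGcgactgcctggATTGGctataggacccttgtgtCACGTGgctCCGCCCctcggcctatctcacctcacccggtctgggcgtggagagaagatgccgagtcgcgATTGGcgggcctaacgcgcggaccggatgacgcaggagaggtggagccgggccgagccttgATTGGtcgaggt
Sc5d, chr9:42264301-42264550, minus strand: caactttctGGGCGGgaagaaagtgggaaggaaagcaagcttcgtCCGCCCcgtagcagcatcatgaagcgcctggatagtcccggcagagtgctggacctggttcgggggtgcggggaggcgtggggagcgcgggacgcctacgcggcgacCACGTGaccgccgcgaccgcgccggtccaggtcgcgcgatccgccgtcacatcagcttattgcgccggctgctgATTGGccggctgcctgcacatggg
Srebf2, chr15:82147019-82147268, plus strand: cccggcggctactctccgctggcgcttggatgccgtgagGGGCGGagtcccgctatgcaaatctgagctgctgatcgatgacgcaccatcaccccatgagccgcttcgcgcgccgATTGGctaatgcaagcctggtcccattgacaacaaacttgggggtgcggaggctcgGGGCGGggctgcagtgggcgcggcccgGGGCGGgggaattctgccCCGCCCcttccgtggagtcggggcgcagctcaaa
Insig1, chr5:28071162-28071411, plus strand: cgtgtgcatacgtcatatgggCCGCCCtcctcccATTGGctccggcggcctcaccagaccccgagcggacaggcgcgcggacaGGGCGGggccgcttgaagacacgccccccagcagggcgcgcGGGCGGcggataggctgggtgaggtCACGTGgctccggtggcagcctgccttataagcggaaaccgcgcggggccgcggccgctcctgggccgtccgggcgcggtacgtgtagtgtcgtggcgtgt
In the Hmgcs1 window the sterol regulatory element core TCACCCCAC lies 137 to 129 bases before the start, between the second and the last of 3 inverted CCAAT boxes (ATTGG). Hsd17b7 likewise has 3 ATTGG boxes, while Sc5d, Srebf2 and Insig1 have 1 each. Hsd17b7, Sc5d and Insig1 also hold the E-box, at 143 to 138, 98 to 93 and 101 to 96 bases before the start. The window of Cyp51, not printed here, holds CCAAT at 29 to 25 and GGGCGG at 135 to 130 bases before the start. It has no match to the E-box.

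The mevalonate steps were measured by 5 of 7 listed genes, none of which passed the test in any comparison. Their median Dex difference was -0.09 in control mice, with 1 of 5 higher, and 0.33 in Cx30GRko mice, with 4 of 5 higher. Replicates 1 to 3 gave -0.19 and 0.0047.

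Hmgcs1 encodes the cytosolic synthase that makes HMG-CoA, the precursor of mevalonate. In order of replicates 1 to 5, its log2 signals were 8.56, 8.42, 8.70, 7.73 and 8.47 for control saline, 8.34, 8.31, 8.45, 8.15 and 8.17 for control Dex, 8.55, 8.50, 8.35, 8.52 and 8.27 for Cx30GRko saline and 8.45, 8.48, 8.49, 9.39 and 9.02 for Cx30GRko Dex. Cx30GRko Dex replicates 4 and 5 were the highest arrays, control saline replicate 4 was the lowest, and the Cx30GRko Dex arrays lay above the control Dex arrays, by a narrow margin. Under Dex, Cx30GRko mice read 8.77 ± 0.42 and control mice 8.28 ± 0.12 (SD, n = 5), a difference of 0.48 ± 0.19 (SE, 1.4-fold), which did not pass (limma, adjusted p = 0.423). It was the only one of the 26 genes without overlap in that comparison, where the groups did not overlap for 1.28% of all genes. For genotype under saline 0 of 26 were without overlap, against 0.938% of all genes. The difference was 0.11 ± 0.11 in replicates 1 to 3, against 1.04 in replicates 4 and 5. The interaction was 0.42 ± 0.27 (limma, adjusted p = 0.856).

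Mvk and Pmvk encode the kinases that phosphorylate mevalonate in turn. A relation between their signals was not tested. Mvk read 5.56, 5.45, 5.73, 4.83 and 5.54 for control saline, 5.44, 5.69, 6.03, 5.65 and 6.44 for control Dex, 5.72, 5.64, 5.81, 5.75 and 4.94 for Cx30GRko saline and 5.88, 5.60, 5.69, 6.01 and 6.34 for Cx30GRko Dex. Its Dex arrays overlapped the saline arrays in both genotypes, with control Dex replicate 5 the highest and control saline replicate 4 and Cx30GRko saline replicate 5 the lowest. The mean Dex effect was 0.38 ± 0.15 (limma, adjusted p = 0.537), of which replicates 1 to 3 showed 0.07 ± 0.11 and replicates 4 and 5 showed 0.85. Pmvk read 7.06, 7.30, 7.33, 6.95 and 7.37 for control saline, 6.93, 7.26, 7.31, 6.96 and 7.40 for control Dex, 6.84, 6.96, 7.23, 6.91 and 6.33 for Cx30GRko saline and 7.14, 6.94, 6.96, 7.08 and 7.84 for Cx30GRko Dex. Under saline the Cx30GRko arrays were mostly lower than the control arrays but overlapped them, and Cx30GRko Dex replicate 5 was the highest of all. The genotype difference under saline was -0.35 ± 0.18 (limma, adjusted p = 0.914), -0.22 ± 0.14 in replicates 1 to 3 against -0.55 in replicates 4 and 5.

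Mvd encodes the decarboxylase that closes the mevalonate steps. The signals were 5.01, 5.13, 4.93, 5.16 and 5.45 for control saline, 3.98, 5.02, 4.49, 5.03 and 4.40 for control Dex, 4.82, 4.76, 4.48, 4.65 and 5.38 for Cx30GRko saline and 5.12, 4.75, 5.10, 3.91 and 4.42 for Cx30GRko Dex. Control Dex replicates 1, 3 and 5 lay below every control saline array, but replicates 2 and 4 did not. In control mice the Dex difference was -0.55 ± 0.23 (0.681-fold; limma, adjusted p = 0.901), and it was alike in both array sets, at -0.53 ± 0.22 and -0.59. In Cx30GRko mice the sets went apart: Dex arrays of replicates 4 and 5 lay below the saline arrays of those replicates, while Dex replicates 1 and 3 lay above every saline array of replicates 1 to 3. The mean Dex effect was -0.36 ± 0.17 (limma, adjusted p = 0.574), which made Mvd the lowest of the 26 genes in that comparison. Its scatter in replicates 1 to 3 was wide for the group, with a residual SD of 0.30.

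Fdps makes farnesyl diphosphate, from which both sterols and isoprenoids are drawn. It read 6.86, 7.11, 7.14, 7.43 and 6.06 for control saline, 6.48, 6.90, 6.86, 6.47 and 6.55 for control Dex, 6.45, 6.73, 6.85, 6.65 and 6.60 for Cx30GRko saline and 6.78, 6.80, 6.76, 7.23 and 7.48 for Cx30GRko Dex. Control saline held both the highest array of the control groups, replicate 4, and the lowest, replicate 5, and the Dex and saline arrays overlapped in each genotype. The Dex difference was -0.27 ± 0.21 in control mice and 0.35 in Cx30GRko mice. Their difference, the interaction, was 0.62 ± 0.29 (limma, adjusted p = 0.846), with 0.40 ± 0.21 in replicates 1 to 3 against 0.96 in replicates 4 and 5.

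The steps from farnesyl diphosphate to lanosterol were measured by 3 of 3 listed genes. Sqle, the squalene epoxidase and a controlled step of the route, read 6.43, 6.62, 6.94, 6.22 and 6.27 for control saline, 6.18, 6.16, 6.37, 5.95 and 6.38 for control Dex, 6.24, 6.61, 6.28, 5.44 and 6.97 for Cx30GRko saline and 6.47, 6.33, 6.33, 7.50 and 6.58 for Cx30GRko Dex. In replicates 1 to 3 the control Dex arrays lay below the control saline arrays without overlap, as was so for 12.6% of all genes in one direction or the other. Cx30GRko Dex replicate 4 was the highest array and Cx30GRko saline replicate 4 the lowest. The control Dex difference was -0.29 ± 0.24 over all arrays (limma, adjusted p = 0.964), -0.43 ± 0.15 in replicates 1 to 3 (limma, adjusted p = 0.504) against -0.08 in replicates 4 and 5. In Cx30GRko mice replicates 1 to 3 gave 0.0026, and the interaction over all arrays was 0.62 ± 0.34 (limma, adjusted p = 0.846). Fdft1, the squalene synthase, lay between 8.03 and 9.06 and had a mean Dex effect of 0.07 ± 0.13. Lss, which closes squalene epoxide to lanosterol, lay between 4.32 and 5.06 and had -0.06 ± 0.10. Neither passed in any comparison.

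The 8 enzymes from lanosterol to cholesterol were all measured. Their median Dex difference was 0.07 in control mice and 0.29 in Cx30GRko mice, where 7 of 8 were higher. These medians were -0.08 and 0.03 in replicates 1 to 3, against 0.34 and 0.80 in replicates 4 and 5.

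Cyp51, the lanosterol demethylase, and Sc5d, a sterol desaturase near the end of the route, showed the same arrangement of arrays. The Cyp51 signals were 6.83, 6.85, 6.91, 5.84 and 5.77 for control saline, 6.60, 6.75, 6.74, 6.49 and 6.03 for control Dex, 6.85, 6.84, 6.77, 6.88 and 6.78 for Cx30GRko saline and 6.86, 6.51, 6.43, 8.67 and 7.50 for Cx30GRko Dex. Those of Sc5d were 6.85, 7.14, 7.23, 6.06 and 6.17 for control saline, 7.00, 6.93, 6.94, 6.65 and 6.25 for control Dex, 6.92, 6.97, 6.84, 6.99 and 7.12 for Cx30GRko saline and 7.14, 6.89, 6.83, 8.74 and 7.80 for Cx30GRko Dex. For both genes the 12 arrays of replicates 1 to 3 lay close together. In replicates 4 and 5 the control arrays were low, the Cx30GRko saline arrays were in the middle and Cx30GRko Dex replicate 4, with replicate 5 next, was far above every other array. Because the 2 sets were centred to the same mean, high arrays in a set lower its other arrays. The control arrays of replicates 4 and 5 can therefore not be read as low against replicates 1 to 3. Under Dex the Cx30GRko mean of Cyp51 was 7.20 ± 0.93 and the control mean 6.52 ± 0.30 (SD, n = 5), a difference of 0.67 ± 0.32 (limma, adjusted p = 0.447). For Sc5d the same difference was 0.73 ± 0.29 (limma, adjusted p = 0.423). Replicates 1 to 3 gave -0.10 ± 0.12 and -0.0021 ± 0.13, against 1.83 and 1.82 in replicates 4 and 5. Leaving out Cx30GRko Dex replicates 4 and 5 gave 0.08 and 0.20, with the control arrays of those replicates still centred together with the pair.

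**Figure D4:**
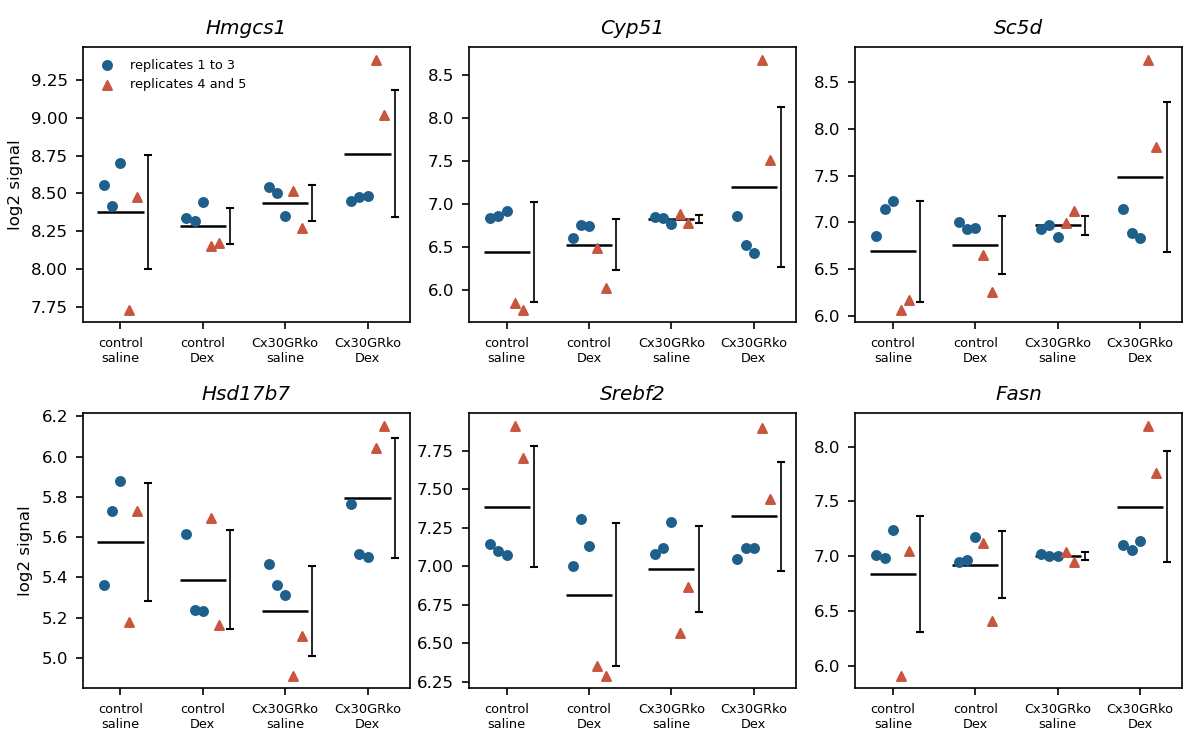
Log2 signal of 6 of the genes in every array by group, with circles for replicates 1 to 3 and triangles for replicates 4 and 5. Horizontal lines are group means and bars are the SD of the 5 arrays, with vertical axes that differ between panels and do not start at 0. Circles of a gene lie close together across groups, while triangles of Cyp51 and Sc5d run from 5.77 to 8.67 and from 6.06 to 8.74.

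Msmo1 encodes the methylsterol monooxygenase. It read 6.36, 6.69, 6.76, 6.23 and 6.00 for control saline, 6.48, 6.50, 6.67, 6.27 and 6.67 for control Dex, 6.49, 6.58, 6.48, 5.69 and 6.81 for Cx30GRko saline and 6.65, 6.44, 6.43, 7.50 and 7.18 for Cx30GRko Dex. The Dex and saline arrays of Cx30GRko mice overlapped, and only Cx30GRko Dex replicates 4 and 5 lay above all others. The Dex difference there was 0.43 ± 0.22 (limma, adjusted p = 0.529), split into -0.01 ± 0.13 in replicates 1 to 3 against 1.09 in replicates 4 and 5. For both genotypes together it was 0.27 ± 0.16 (limma, adjusted p = 0.635).

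Nsdhl, a sterol dehydrogenase that acts with Msmo1 in removing methyl groups, ran 7.92, 8.03, 8.12, 7.82 and 8.68 for control saline, 7.86, 7.97, 7.93, 7.75 and 8.17 for control Dex, 7.81, 7.92, 7.80, 7.41 and 7.84 for Cx30GRko saline and 7.98, 7.93, 7.89, 8.11 and 7.66 for Cx30GRko Dex. In replicates 1 to 3 the Cx30GRko saline arrays lay below the control saline arrays by a narrow margin, and the groups did not overlap for 10.2% of all genes there. Over all arrays the groups overlapped. The genotype difference under saline was -0.36 ± 0.16 (0.779-fold; limma, adjusted p = 0.914), the smallest unadjusted p of the 26 genes in that comparison. It was -0.19 ± 0.10 in replicates 1 to 3 against -0.62 in replicates 4 and 5.

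Hsd17b7, a ketosteroid reductase of the same demethylation, came closest to a Dex difference in Cx30GRko mice. Its signals were 5.36, 5.73, 5.88, 5.18 and 5.73 for control saline, 5.62, 5.24, 5.23, 5.70 and 5.16 for control Dex, 5.47, 5.36, 5.31, 4.91 and 5.11 for Cx30GRko saline and 5.76, 5.52, 5.50, 6.04 and 6.15 for Cx30GRko Dex. All 5 Cx30GRko Dex arrays lay above all 5 Cx30GRko saline arrays, while the control groups overlapped. Hsd17b7 and Fasn were the 2 of 26 genes without overlap in that comparison, all in the higher direction, against 1.53% of all genes in either direction. In control mice 0 of 26 were without overlap, against 1.24%. The Dex difference in Cx30GRko mice was 0.56 ± 0.17 (1.48-fold, 95% interval 0.20 to 0.93), which did not pass (limma, adjusted p = 0.47). It was 0.21 ± 0.16 in replicates 1 to 3, 1.09 in replicates 4 and 5 and 0.36 without Cx30GRko Dex replicates 4 and 5. In control mice replicates 1 to 3 gave -0.29, and the interaction was 0.75 ± 0.25 over all arrays (limma, adjusted p = 0.846), 0.51 ± 0.22 in replicates 1 to 3 against 1.11 in replicates 4 and 5. Among the 26 genes it had the smallest unadjusted p for the interaction by limma, 0.00615. It kept its sign in both array sets, as did most of the 26 genes, 8 of which had opposite signs.

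Ebp, the sterol isomerase, had the lowest interaction of the 26 genes, 5 of which were below 0, the others being Mvk, Fdft1, Tm7sf2 and Stard4. The arrays read 6.32, 6.51, 6.47, 5.83 and 6.00 for control saline, 6.40, 6.37, 6.57, 6.95 and 5.91 for control Dex, 6.42, 6.24, 6.05, 7.01 and 6.75 for Cx30GRko saline and 6.33, 6.30, 6.32, 6.15 and 6.26 for Cx30GRko Dex. The 5 Cx30GRko Dex arrays were the tightest group, and the high arrays were Cx30GRko saline replicates 4 and 5 and control Dex replicate 4. The interaction was -0.44 ± 0.27 (limma, adjusted p = 0.855), 0.06 ± 0.17 in replicates 1 to 3 against -1.18 in replicates 4 and 5. Under saline Cx30GRko mice differed from controls by 0.27 ± 0.19 (limma, adjusted p = 0.914), again with opposite signs in the sets, -0.19 and 0.96. Tm7sf2, a sterol reductase, lay between 4.11 and 5.25 with a mean Dex effect of 0.11 ± 0.13. Dhcr7, which makes cholesterol from its immediate precursor, lay between 5.12 and 7.27 with 0.09 ± 0.18. Neither passed in any comparison.

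Among the regulators, the SREBP genes and their carriers, 6 of 6 were measured. Their median Dex difference was -0.09 in control mice and 0.24 in Cx30GRko mice, and -0.05 and -0.08 in replicates 1 to 3.

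Srebf2 encodes the SREBP that acts mainly on sterol synthesis. In order of replicates it read 7.15, 7.10, 7.07, 7.91 and 7.70 for control saline, 7.00, 7.31, 7.13, 6.35 and 6.29 for control Dex, 7.08, 7.12, 7.29, 6.56 and 6.86 for Cx30GRko saline and 7.04, 7.12, 7.12, 7.90 and 7.44 for Cx30GRko Dex. All 12 arrays of replicates 1 to 3 lay between 7.00 and 7.31. In replicates 4 and 5 control saline and Cx30GRko Dex were high, while control Dex and Cx30GRko saline were low, without overlap of the high and the low arrays. Over all arrays the Dex difference was -0.57 ± 0.23 in control mice (0.673-fold; limma, adjusted p = 0.867), and the interaction was 0.91 ± 0.32 (limma, adjusted p = 0.846), the largest among the 26 genes. Replicates 1 to 3 gave 0.04 ± 0.11 and -0.11 ± 0.16, whereas replicates 4 and 5 gave -1.49 and 2.44. In replicates 4 and 5 the Cx30GRko Dex arrays were high and the control Dex arrays low for Srebf2, Cyp51 and Sc5d alike. The control saline arrays were high for Srebf2 but low for Cyp51 and Sc5d. Cx30GRko saline arrays were low for Srebf2 and in the middle for Cyp51 and Sc5d. A relation between these genes was not tested.

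Whether the array sets differed was tested after the data were seen, as a contrast of the effect in replicates 4 and 5 minus that in replicates 1 to 3. The residual variance of replicates 4 and 5 was 4.17 times that of replicates 1 to 3, by limma's estimate over all genes. The same ratio was applied to every gene. With a variance for each array set, 3 of 26 genes passed for genotype under Dex, where 3.18% of all genes passed. They were Cyp51 at 1.93 ± 0.39 (adjusted p = 0.0135), Sc5d at 1.83 ± 0.38 (adjusted p = 0.0144) and Srebf2 at 1.40 ± 0.32 (adjusted p = 0.0214). Their residual SDs in replicates 1 to 3 and in replicates 4 and 5 were 0.12 and 0.45 for Cyp51, 0.13 and 0.37 for Sc5d and 0.098 and 0.21 for Srebf2. For a gene with a wider contrast than the common ratio, such as Cyp51 or Sc5d, the error of replicates 4 and 5 can still be set too low. None of the 26 passed for Dex in control mice (0.00451% of all genes), for Dex in Cx30GRko mice (1.25%), for the mean Dex effect (0.225%), for the interaction (0.00902%) or for genotype under saline (0%). The smallest adjusted p among the 26 was 0.248 for Dex in control mice, at -1.53 ± 0.32 for Srebf2, and 0.0688 for Dex in Cx30GRko mice, at 1.48 ± 0.39 for Cyp51. It was 0.0913 for the interaction, at 2.56 ± 0.45 for Srebf2. A single variance for both sets, which sets the error of replicates 4 and 5 too low, called more genes. It gave Srebf2 for Dex in control mice (limma, adjusted p = 0.0348; 0.122% of all genes), Cyp51, Srebf2 and Sc5d for Dex in Cx30GRko mice (adjusted p = 0.0268, 0.0312 and 0.0489; 4.51%) and for genotype under Dex (6.39%), Srebf2 for the interaction (adjusted p = 0.00867; 0.509%), Cyp51 for the mean Dex effect (adjusted p = 0.0399; 2.16%) and none for genotype under saline (0.0406%). Of the 1418 genes that the single variance called for genotype under Dex, 1213 had a mean signal above the median, as have 24 of the 26 genes. With a variance for each array set the share among such genes is not given, so 3.18% is a background over all genes only. Each group value of replicates 4 and 5 is a mean of 2 mice, and for Cx30GRko Dex these are the pair that stands apart.

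Scap escorts the SREBPs to the Golgi. It read 5.87, 6.01, 6.06, 5.96 and 6.47 for control saline, 6.06, 6.05, 6.22, 5.92 and 5.90 for control Dex, 5.86, 5.95, 5.93, 5.52 and 6.00 for Cx30GRko saline and 6.04, 6.00, 6.13, 6.19 and 6.15 for Cx30GRko Dex. The Cx30GRko Dex arrays lay in a narrow band at the upper edge of the Cx30GRko saline arrays, which they overlapped by 1 array. The Dex difference in Cx30GRko mice was 0.25 ± 0.13 (limma, adjusted p = 0.53), 0.15 ± 0.10 in replicates 1 to 3 against 0.41 in replicates 4 and 5. A second, dimmer Scap probe set gave the other direction, and the mean over both probe sets was -0.03.

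Insig1, itself a sterol-responsive gene that retains the SREBP carrier in the endoplasmic reticulum, read 7.69, 7.64, 7.91, 7.14 and 7.59 for control saline, 7.54, 7.61, 7.66, 7.26 and 8.02 for control Dex, 7.65, 7.72, 7.43, 7.51 and 7.21 for Cx30GRko saline and 7.77, 7.55, 7.57, 8.40 and 8.03 for Cx30GRko Dex. Cx30GRko Dex replicate 4 was the highest array, and the groups overlapped in both genotypes. The Dex difference in Cx30GRko mice was 0.36 ± 0.18 (limma, adjusted p = 0.521), 0.03 ± 0.12 in replicates 1 to 3 against 0.85 in replicates 4 and 5. The remaining regulators did not pass in any comparison. Srebf1, the SREBP that acts mainly on fatty acid synthesis, lay between 4.12 and 5.64 with a mean Dex effect of 0.13 ± 0.14. Insig2 lay between 5.10 and 6.94 with 0.03 ± 0.16, and Stard4, a sterol transfer protein, between 5.07 and 6.41 with -0.20 ± 0.15. Stard4 differed in the lower direction in both genotypes and both array sets, at -0.18 and -0.13 in control mice and -0.30 and -0.17 in Cx30GRko mice, for replicates 1 to 3 and 4 to 5.

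Fatty acid synthesis was measured by 4 of 5 listed genes. Their median Dex difference was 0.12 in control mice and 0.31 in Cx30GRko mice, with 4 of 4 higher in each, and -0.06 and 0.04 in replicates 1 to 3.

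Acaca encodes acetyl-CoA carboxylase, which makes malonyl-CoA and commits carbon to fatty acids. Its log2 signals were 6.81, 6.72, 6.74, 6.18 and 7.16 for control saline, 6.96, 6.97, 7.00, 7.10 and 6.85 for control Dex, 6.70, 6.54, 6.84, 7.10 and 6.10 for Cx30GRko saline and 7.23, 6.93, 6.91, 7.41 and 7.00 for Cx30GRko Dex. In replicates 1 to 3 every Dex array lay above every saline array in both genotypes, whereas control saline replicate 5 and Cx30GRko saline replicate 4 were as high as Dex arrays. The mean Dex effect was 0.35 ± 0.13 (1.27-fold, 95% interval 0.08 to 0.61) and did not pass (limma, adjusted p = 0.497), although its unadjusted p of 0.0128 was the smallest of the 26 genes. It was 0.25 ± 0.18 in control mice and 0.44 ± 0.18 in Cx30GRko mice. Within the sets it was 0.28 ± 0.08 in replicates 1 to 3 (95% interval 0.09 to 0.46; limma, adjusted p = 0.367, where 0.455% of all genes passed) against 0.45 in replicates 4 and 5. Leaving out Cx30GRko Dex replicates 4 and 5 gave 0.31 (limma, adjusted p = 0.952). In replicates 1 to 3 the 26 genes without overlap of Dex and saline were 3 in control mice and 5 in Cx30GRko mice, against 12.6% and 11.1% of all genes.

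Fasn, the fatty acid synthase, uses that malonyl-CoA. It read 7.01, 6.99, 7.24, 5.91 and 7.05 for control saline, 6.95, 6.97, 7.17, 7.13 and 6.41 for control Dex, 7.03, 7.00, 7.00, 7.04 and 6.95 for Cx30GRko saline and 7.11, 7.05, 7.14, 8.19 and 7.76 for Cx30GRko Dex. The Cx30GRko saline arrays lay between 6.95 and 7.04, just below the lowest Cx30GRko Dex array, whereas control saline replicate 4 and control Dex replicate 5 were low. The Dex difference in Cx30GRko mice was 0.45 ± 0.24 (limma, adjusted p = 0.53), 0.09 ± 0.11 in replicates 1 to 3 against 0.98 in replicates 4 and 5. Under Dex Cx30GRko mice differed from controls by 0.53 ± 0.24 (limma, adjusted p = 0.435), 0.07 ± 0.11 in replicates 1 to 3. Scd1, a fatty acid desaturase, lay between 7.80 and 9.07 with a mean Dex effect of 0.17 ± 0.11. Elovl6, an elongase, lay between 8.47 and 9.65 with 0.09 ± 0.12. Scd1 had -0.04 and Elovl6 -0.15 in replicates 1 to 3, and neither passed in any comparison.

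Genes of neighbouring pathways were read for the mean Dex effect. Of the isoprenoid branches, which draw on the same mevalonate, 7 of 7 listed genes were measured and 0 passed. Their median was 0.18, with Ggps1 at 0.43 ± 0.23, Pggt1b at 0.37 ± 0.20 and Dhdds at 0.25 ± 0.17, where replicates 1 to 3 gave -0.0050, -0.03 and -0.03. Of the genes for SREBP processing and sterol-regulated degradation 7 of 8 were measured and 0 passed, with a median of -0.02. Of other fatty acid synthesis, elongation and desaturation genes 16 of 17 were measured and 0 passed, with a median of 0.10 and Hacd3, an elongation dehydratase, at 0.45 ± 0.17 (limma, adjusted p = 0.525). Of sterol storage, export and turnover genes 12 of 14 were measured and 1 passed, Abca1, the cholesterol exporter, where 0.149% of all genes passed. Abca1 rose by 0.68 ± 0.12 (1.60-fold; limma, adjusted p = 0.0115), with 0.43 in replicates 1 to 3 against 1.05 in replicates 4 and 5. Leaving out Cx30GRko Dex replicates 4 and 5 gave 0.57 (limma, adjusted p = 0.0637).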

How the data were processed

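Labelled RNA of the spinal cord was measured on Affymetrix arrays, with 1 array for each mouse, after labelling with a whole-transcript kit. The authors deposited log2 probe set signals in 1 table. The submitters' processing notes name oligo. Its version, the normalization, genome build and annotation are not given in the sources used here. Of 41345 probe sets 23521 had 1 gene symbol in the platform annotation, 1814 several and 16010 none. For each of 22180 genes the probe set with the highest mean was tested, with no filter on dim probe sets.

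Group means were fitted to all 20 arrays with limma 3.58.1 in R 4.3.3 (16 residual degrees of freedom), without a block, as two-sided tests with Benjamini-Hochberg adjustment over all genes per comparison. The centring within array sets uses up degrees of freedom that this fit does not count. P-values measure the spread between arrays. The scripts were tested on simulated data. The array sets are inferred from the values, not from the labels. The members and lists were chosen with earlier results of these data known. Values of every array are given for the 6 genes with the smallest p in each comparison, and up to 3 genes are named per neighbouring pathway. Same-numbered arrays were not paired: their deviations correlated at -0.306 to 0.0367 over 30 pairs. Alternatives were array and replicate blocks, other normalizations, array weights, each array set, a variance for each array set in the test between sets, each array left out and a stricter threshold.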

Additional observations from a re-analysis of the deposited data

Results flagged for a closer look

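There were 104 groups of 5 arrays, 26 genes in 4 groups. An array was flagged when its gap to the nearest other array was more than 0.71 of the group's range. Of the 104 groups, 12 held such an array. Of these, 11 were arrays of replicates 4 or 5, and 5 were Cx30GRko Dex replicates 4 or 5. Chance flags about 1 in 20 groups when all 5 values have the same variance. Each group here mixes both array sets. The residual variance of replicates 4 and 5 was 4.17 times that of replicates 1 to 3. The 26 genes also share the same arrays. The rate of 1 in 20 is therefore no background for the 12. Among the Cx30GRko Dex arrays, Sqle at 7.50 (others 6.33 to 6.58) and Lss at 5.01 stood high in replicate 4, and Pmvk at 7.84, Dhcr7 at 7.27 (others 6.04 to 6.29) and Insig2 at 6.94 stood high in replicate 5. Among the Cx30GRko saline arrays, Fdft1 at 8.93 was high and Nsdhl at 7.41 low in replicate 4, and Mvk at 4.94 was low in replicate 5. Among the control saline arrays, Srebf1 at 4.22 and Fasn at 5.91 (others 6.99 to 7.24) were low in replicate 4, Scd1 at 7.80 (others 8.58 to 8.67) was low in replicate 5 and Lss at 5.06 was high in replicate 3.

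For Fdps and Nsdhl every Dex array lay below the mean of the saline arrays of its own array set in control mice. In Cx30GRko mice every Dex array of both genes lay above that mean. The share of all genes with this pattern is not given, so the pattern has no background here. In replicates 4 and 5 the saline mean is of 2 arrays, which for Fdps in control mice were 7.43 and 6.06. The difference between the effects was 0.62 for Fdps and 0.34 for Nsdhl, and neither passed the limma test of the interaction (adjusted p = 0.846 and 0.856).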

How the results depend on the processing

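The number of the 26 genes that passed was 0 in each of the 6 comparisons under every alternative that kept the tested effect. The number over all genes did change, given here for Dex in control mice, for Dex in Cx30GRko mice and for the mean Dex effect in turn, where it was 3, 4 and 33. With a replicate block, which has no basis in a pairing of the mice, it was 0, 0 and 15. Replicates 1 to 3 alone gave 38, 7 and 101, replicates 4 and 5 alone 0, 0 and 0, array weights 58, 18 and 129, and an adjusted p under 0.01 gave 0, 0 and 13. Leaving out Cx30GRko Dex replicates 4 and 5 gave 7 for Dex in control mice and 0 for Dex in Cx30GRko mice, and fitting only the groups compared gave 0 and 1. For Dex in Cx30GRko mice it was 2 with an array set block, with quantile normalization, with cyclic loess and with arrays scaled to the same SD, the last chosen after the data were seen. With 1 array left out at a time it ran from 0 to 5, from 0 to 6 and from 18 to 35, and from 0 to 1 for the interaction and for genotype under saline.

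The median over the 26 genes moved as follows. For Dex in Cx30GRko mice it went from 0.29 to 0.0047 in replicates 1 to 3, 0.67 in replicates 4 and 5, 0.057 without Cx30GRko Dex replicates 4 and 5 and 0.086 with array weights. For the interaction it went from 0.31 to 0.072, 0.64, 0.060 and 0.097 in the same order. For genotype under Dex it went from 0.22 to 0.0075, 0.51 and 0.038 under the first 3 of these. For the mean Dex effect it went from 0.11 to -0.041, 0.43 and 0.0034, again under the first 3. Leaving out 1 array gave medians of 0.16 to 0.37 for Dex in Cx30GRko mice, lowest without Cx30GRko saline replicate 4, 0.06 to 0.15 for the mean Dex effect and 0.16 to 0.38 for the interaction, both lowest without Cx30GRko Dex replicate 4.

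Of the 26 genes, the number whose sign in replicates 1 to 3 was opposite to that over all arrays was 13 for Dex in control mice, 11 for Dex in Cx30GRko mice, 16 for the mean Dex effect, 6 for the interaction, 10 for genotype under saline and 11 for genotype under Dex. Among the genes named for each comparison these were Srebf2 for Dex in control mice (0.041), the interaction (-0.11), genotype under saline (0.059) and genotype under Dex (-0.052); Msmo1 for Dex in Cx30GRko mice (-0.014) and the mean Dex effect (-0.034); Hsd17b7 for the mean Dex effect (-0.042); Ebp for the interaction (0.064) and genotype under saline (-0.19); Sc5d (-0.0021) and Cyp51 (-0.10) for genotype under Dex. For the mean Dex effect Ggps1 (-0.0050), Pggt1b (-0.032), Dhdds (-0.030), Ubxn4 (-0.027), Erlin2 (0.25), Tecr (-0.019), Me1 (-0.061) and Npc1 (-0.0091) did so too. Erlin2 also turned to 0.13 without Cx30GRko Dex replicates 4 and 5 and to 0.10 with array weights, and Scap turned to -0.026 for Dex in Cx30GRko mice with the mean over its probe sets. The cause was not tested. The share of all genes whose sign turned is not given, so the counts above have no background here. The Abca1 call was lost in replicates 1 to 3 (adjusted p = 0.254), in replicates 4 and 5 (0.273), without Cx30GRko Dex replicates 4 and 5 (0.0637), with the replicate block (0.062) and at an adjusted p under 0.01.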
